A study of Mus musculus with 18 samples.

Results

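The genes described here are 10 genes of T cells and cytotoxic lymphocytes, read in dorsal spinal cord tissue of mice. They are the CD3 chains Cd3d, Cd3e and Cd3g, the kinase Lck, the adhesion receptor Cd2, the co-receptors Cd4, Cd8a and Cd8b1, and the granule genes Nkg7 and Gzmk. They were chosen by their known role and found by name among the 34579 loci of each table, where 11 loci carry a member's name. Gzmk has 2 loci, and the one with the higher mean level was used. Every member was measured in all 6 groups, and no value was 0.

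The tissue was the dorsal part of lumbar segments L3 to L5 of C57BL/6 mice (C57BL/6N in the methods) aged 3 months according to the labels. All mice had received a recombinant adeno-associated virus (rAAV) in the dorsal horn on both sides. The vector carried LacZ, a bacterial enzyme used as the control, or wild-type HDAC4 (HDAC4 wt), a class IIa histone deacetylase, or HDAC4 3SA, a mutant with changed phosphorylation sites that stays in the nucleus. The promoter that drives these transgenes and the sex of each mouse were not given in the sources used here. One hindpaw then received complete Freund's adjuvant (CFA), which causes a lasting inflammation, or saline, and the tissue was collected 24 h later. Each of the 6 groups held 3 mice, 18 in all, and each mouse gave its own polyA RNA library. There was no group without a vector, so the control mice carried an injected spinal cord as well. Mouse Hdac4 was at 7.41 and 7.72 FPKM with LacZ (saline and CFA), at 10.1 and 10.8 with HDAC4 wt and at 8.86 and 8.81 with HDAC4 3SA. Thus both HDAC4 vectors were above LacZ, though whether reads of the transgenes count at this locus was not tested.

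Levels are in FPKM, fragments per length of exon scaled to all mapped fragments, a unit in which genes can be set side by side. The deposited tables give 1 FPKM value per group, estimated over its 3 mice. The spread between mice is therefore not shown, and no difference below was tested here. The methods give a minimum number of reads per library, but the tables do not say how many reads lie behind a value. A table holds the saline and the CFA group of 1 vector and was normalized on its own, so levels of different vectors are set side by side as a description. Anything that differed between the vectors' runs or in the handling of the mice cannot be told apart from the vector.

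T cells recognise antigen through the T cell receptor, whose antigen-binding chains reach the surface together with the CD3 chains. Upon binding, the kinase Lck phosphorylates the CD3 chains and starts the signal. CD4 marks helper T cells and CD8, a dimer of the products of Cd8a and Cd8b1, marks cytotoxic T cells, which kill target cells with granules that natural killer cells carry too. Healthy spinal cord holds few lymphocytes, while they enter it after injury, infection and in autoimmune inflammation.

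The 3 CD3 genes lie together on chromosome 9 (GRCm38), within 40019 bp between positions 44969597 and 45009615. Cd3g and Cd3d are transcribed away from each other, Cd3g on the minus strand (chr9:44969597-44980425) and Cd3d on the plus strand (chr9:44981800-44986922). Cd3e (chr9:44998975-45009615) lies on the minus strand, and its locus also holds exons of Gm48719 and Gm48720. RefSeq promoters (GRCm38.p6, 250 bases before to 50 after the start) were matched for 7 of the 10 members, with 8 promoters because Lck has 2. None was matched for Cd4, Cd8b1 and Cd2. The promoters of the CD3 chains and of Nkg7 are shown from 5′ to 3′ on the strand of the gene. The CD3 chains share a region and carry the T cell identity of the set. Nkg7 was the member past 2-fold after CFA with every vector when 0.1 FPKM was added to the values. On plain ratios Gzmk was past 2-fold with every vector too, and with 1 FPKM added no member was. Capitals mark the E-box of E proteins (CAGGTG, or CACCTG on the other strand) and the core of ETS factors (AGGAAG, or CTTCCT on the other strand).
Cd3g, chr9:44980382-44980681, minus strand: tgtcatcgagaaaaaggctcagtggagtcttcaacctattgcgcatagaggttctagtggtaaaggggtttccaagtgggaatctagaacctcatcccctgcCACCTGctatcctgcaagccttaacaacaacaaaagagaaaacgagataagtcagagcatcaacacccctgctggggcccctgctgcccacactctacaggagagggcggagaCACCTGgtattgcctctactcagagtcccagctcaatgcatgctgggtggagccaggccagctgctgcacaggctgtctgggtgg
Cd3d, chr9:44981536-44981835, plus strand: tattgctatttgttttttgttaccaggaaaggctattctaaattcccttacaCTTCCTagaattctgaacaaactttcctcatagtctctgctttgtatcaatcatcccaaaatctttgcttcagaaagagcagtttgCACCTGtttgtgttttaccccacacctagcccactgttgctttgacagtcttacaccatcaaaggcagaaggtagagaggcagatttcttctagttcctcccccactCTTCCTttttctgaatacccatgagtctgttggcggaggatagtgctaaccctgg
Cd3e, chr9:45009562-45009861, minus strand: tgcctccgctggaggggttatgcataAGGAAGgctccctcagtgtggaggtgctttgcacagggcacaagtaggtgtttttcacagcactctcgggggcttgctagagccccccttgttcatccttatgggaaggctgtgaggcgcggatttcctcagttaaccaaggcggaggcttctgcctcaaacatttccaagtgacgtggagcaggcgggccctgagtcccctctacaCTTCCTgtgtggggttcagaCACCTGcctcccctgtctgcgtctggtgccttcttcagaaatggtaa
Nkg7, chr7:43436888-43437187, plus strand: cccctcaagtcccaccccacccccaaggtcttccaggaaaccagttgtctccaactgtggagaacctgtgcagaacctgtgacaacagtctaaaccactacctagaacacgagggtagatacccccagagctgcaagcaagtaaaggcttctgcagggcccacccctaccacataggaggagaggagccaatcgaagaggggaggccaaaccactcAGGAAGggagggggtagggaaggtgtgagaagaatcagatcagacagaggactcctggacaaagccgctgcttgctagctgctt

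The E-box stood in 5 of the 8 member promoters, namely those of Cd3g, Cd3d and Cd3e and both of Lck, and in 20.2% of all 32851 promoters of the same length. The ETS core stood in 5 member promoters as well (Cd3d, Cd3e, Nkg7 and both of Lck) and in 35.4% of all. A further 4 motifs were searched on both strands. The RUNX core TGTGGT was found for Lck and Nkg7, in 2 promoters against 16.8% of all, and the TCF/LEF core CTTTGA for Cd3d and Gzmk, in 2 promoters against 16% of all. The GATA core AGATAA was found for Cd3g only, against 11.2% of all promoters, and TATAAA in no member promoter, against 13.6%. The 6 motifs were chosen with the sequences in view, and a match describes the letters and is no evidence of binding.

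Across the 6 groups, the 10 members kept a common order. Each of them was lowest with LacZ and saline, next with LacZ and CFA, and higher in all 4 HDAC4 groups. How many of all loci read (defined below) had this order was not counted. Of these loci, 55.4% and 53.0% were higher with HDAC4 wt than with LacZ (saline and CFA). With HDAC4 3SA, 55.4% and 53.2% were higher than with LacZ. The summed level of the members was 1.45 FPKM with LacZ and saline, 2.65 with LacZ and CFA, 15.4 with HDAC4 wt and saline, 23.7 with HDAC4 wt and CFA, 8.74 with HDAC4 3SA and saline and 16.8 with HDAC4 3SA and CFA. Their median level lay at percentile 4.29 of the 25278 loci read in LacZ saline and at 7.54 in LacZ CFA. It lay at percentile 42.7 and 48.2 in HDAC4 wt and at 34.3 and 44.2 in HDAC4 3SA, saline first. The loci read are those with 1 gene name, the same place in all tables and a mean over the 6 groups of at least 0.1 FPKM. This mean includes the HDAC4 groups, so members below 0.1 FPKM with LacZ, such as Cd4, were kept. Loci low in all groups were left out. The low percentiles with LacZ, and their distance from those with HDAC4, therefore depend in part on this filter. In tissue, a lower number of cells of a type and less RNA per cell cannot be told apart.

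**Figure D1:**
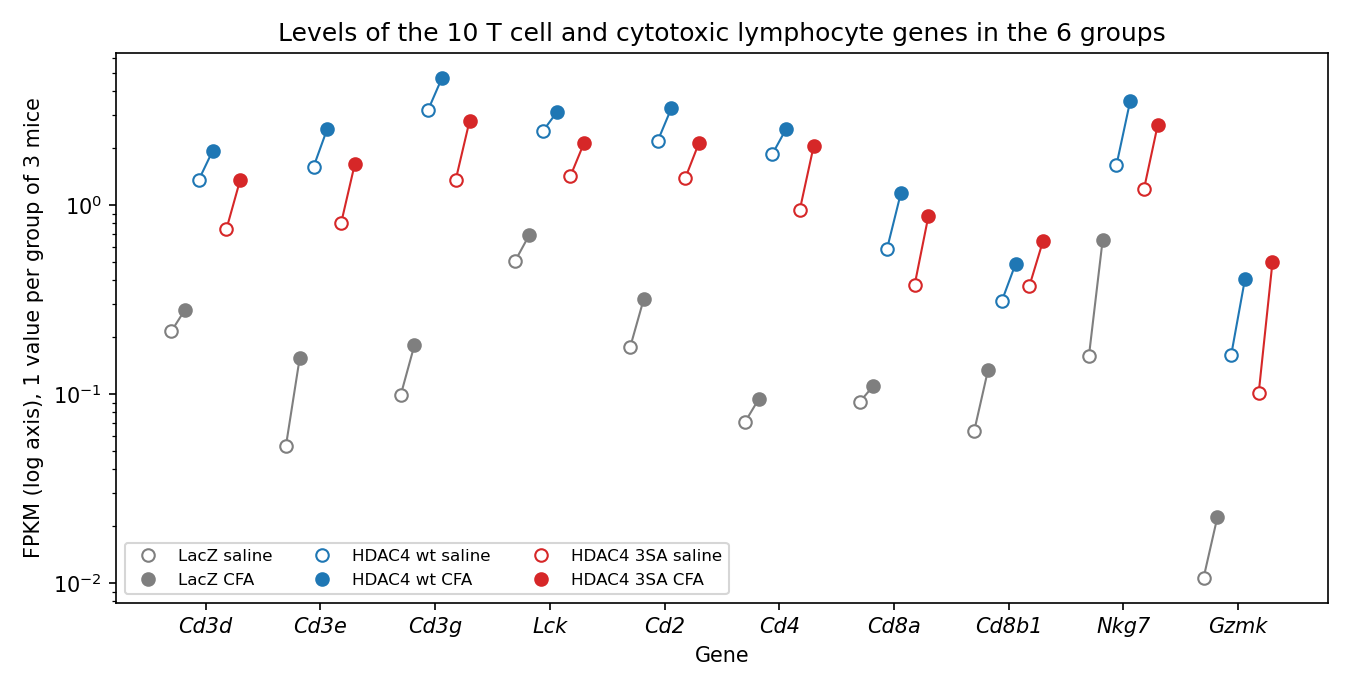
Level of each of the 10 members in FPKM (log axis), 1 value per group of 3 mice with no error; open circles are saline, filled circles CFA, and lines join the groups of 1 vector (grey LacZ, blue HDAC4 wt, red HDAC4 3SA). All 30 lines go up from saline to CFA, and both LacZ circles of a gene lie below its 4 HDAC4 circles.

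Among the CD3 chains, Cd3g had the widest range. It was at 0.0987 and 0.182 FPKM with LacZ (saline and CFA), at 3.20 and 4.71 with HDAC4 wt and at 1.36 and 2.79 with HDAC4 3SA. Cd3e, the chain that pairs with both of the others, was at 0.0534 and 0.155 FPKM with LacZ, at 1.59 and 2.54 with HDAC4 wt and at 0.801 and 1.65 with HDAC4 3SA. Cd3d was at 0.215 and 0.280 FPKM, at 1.36 and 1.94, and at 0.744 and 1.36 in the same order. With LacZ, Cd3d was thus the highest of the chains, and Cd3g was 0.460 and 0.650 times Cd3d. With the HDAC4 vectors, Cd3g was the highest, 2.35 and 2.44 times Cd3d with HDAC4 wt and 1.83 and 2.06 times with HDAC4 3SA. The LacZ values of all 3 chains were below 0.3 FPKM, where an FPKM ratio rests on little signal.

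Lck and Cd2 are used by helper and cytotoxic T cells, and both also by natural killer cells. Lck (chr4:129548345-129573652, minus strand) was at 0.509 and 0.694 FPKM with LacZ, at 2.47 and 3.10 with HDAC4 wt and at 1.43 and 2.14 with HDAC4 3SA. It was the highest member in both LacZ groups and in HDAC4 3SA saline, and Cd3g was the highest in the other groups. Lck was 1.39 and 1.12 times the summed level of the CD3 chains with LacZ, 0.400 and 0.338 times with HDAC4 wt, and 0.491 and 0.370 times with HDAC4 3SA. Its share against the CD3 chains was therefore lower in all 4 HDAC4 groups. Cd2 (chr3:101275899-101287938, minus strand) was at 0.177 and 0.320 FPKM with LacZ, at 2.18 and 3.26 with HDAC4 wt and at 1.39 and 2.13 with HDAC4 3SA.

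Cd4, the helper co-receptor (chr6:124864697-124888218, minus strand), was at 0.0708 and 0.0937 FPKM with LacZ, at 1.86 and 2.53 with HDAC4 wt and at 0.948 and 2.05 with HDAC4 3SA. Cd4 also occurs in some macrophages and dendritic cells, so its RNA in tissue need not be that of T cells alone. The CD8 genes lie together on the same chromosome, within 56346 bp on the plus strand. Cd8a was at 0.0905 and 0.110 FPKM with LacZ, at 0.587 and 1.15 with HDAC4 wt and at 0.377 and 0.871 with HDAC4 3SA. The Cd8a locus of the tables (chr6:71353080-71379156) begins before the annotated gene (chr6:71373427-71379173) and also holds exons of the non-coding genes Gm44174, on the same strand, and Gm44175. Its value may therefore include other transcripts. Cd8b1 (chr6:71322811-71337494) was at 0.0638 and 0.134 FPKM with LacZ, at 0.310 and 0.488 with HDAC4 wt and at 0.372 and 0.647 with HDAC4 3SA. Unlike the other co-receptors it was higher with HDAC4 3SA than with HDAC4 wt, after saline and after CFA.

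Nkg7, a granule membrane protein of cytotoxic T cells and natural killer cells (chr7:43437115-43438255, plus strand), was at 0.159 and 0.656 FPKM with LacZ, at 1.63 and 3.56 with HDAC4 wt and at 1.22 and 2.66 with HDAC4 3SA. Gzmk, a granule protease (chr13:113171318-113180913, minus strand), was the lowest member in all 6 groups. It was at 0.0107 and 0.0223 FPKM with LacZ, at 0.161 and 0.405 with HDAC4 wt and at 0.101 and 0.498 with HDAC4 3SA. Nkg7 thus had its highest value with HDAC4 wt and CFA, and Gzmk with HDAC4 3SA and CFA.

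The order of the 4 HDAC4 groups differed between members. Cd3d, Cd3g, Lck and Cd2 were higher in both HDAC4 wt groups than in both HDAC4 3SA groups. Cd3e, Cd4, Cd8a and Nkg7 had HDAC4 3SA CFA between HDAC4 wt saline and HDAC4 wt CFA. Gzmk was higher in both CFA groups than in both saline groups, with HDAC4 3SA CFA on top, and Cd8b1 was highest with HDAC4 3SA CFA, followed by HDAC4 wt CFA. Whether neighbouring groups in these orders differ beyond the spread between mice cannot be judged from 1 value per group.

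The comparison of CFA with saline within a vector asks how the spinal cord responded to an inflamed paw. All 10 members were higher after CFA in each of the vectors, 30 of 30 values, while 50.5% of the loci read were higher with LacZ, 52.0% with HDAC4 wt and 52.8% with HDAC4 3SA. Most differences were moderate. In units of log2((CFA + 0.1)/(saline + 0.1)), with FPKM values, the median of the members was 0.44 with LacZ, 0.55 with HDAC4 wt and 0.97 with HDAC4 3SA, against 0.00208, 0.00955 and 0.0166 over all loci read. The 0.1 FPKM added keeps values near 0 from giving large ratios, and it makes the difference of low genes look smaller. On plain ratios the member medians were 1.83 with LacZ, 1.53 with HDAC4 wt and 2.05 with HDAC4 3SA, so the order of LacZ and HDAC4 wt turned with the constant, while HDAC4 3SA was highest on both scales.

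With LacZ, 1 of the 10 members was at least 2-fold higher on this scale, against a background of 1.76% of the loci read, and 0 were at least 2-fold lower, against 1.4%. It was Nkg7, with a log2 difference of 1.55 and a plain ratio of 4.13. The next were Cd3e with 0.74 and Cd2 with 0.60. Cd3e, Cd8b1 and Gzmk were at plain ratios of 2.91, 2.09 and 2.09, but both of their LacZ values were below 0.16 FPKM. The lowest log2 differences were those of Cd8a and Gzmk with 0.14 each, of Cd4 with 0.18 and of Cd3d with 0.27.

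With HDAC4 wt, again 1 member was at least 2-fold higher (background 2.71%) and 0 were lower by that much (background 1.85%). The member was Nkg7 once more, with a log2 difference of 1.08 and a plain ratio of 2.19. Gzmk followed with 0.95 and Cd8a with 0.87. The CD3 chains lay between 0.48 for Cd3d and 0.64 for Cd3e, and Cd4 and Lck were lowest with 0.42 and 0.32.

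With HDAC4 3SA, 4 members were at least 2-fold higher (background 3.82%) and 0 lower (background 1.41%). These were Gzmk with a log2 difference of 1.57, Nkg7 with 1.07, Cd4 with 1.04 and Cd8a with 1.03. Cd3g with 0.98 and Cd3e with 0.96 lay just under the 2-fold line, and Lck was lowest with 0.56. On the plain ratio, Cd4 was 2.16 times, Cd3e 2.06 times, Cd3g 2.04 times and Gzmk 4.92 times its saline level. With 1 FPKM added in place of 0.1, no member was 2-fold higher in any vector, while 0.316%, 0.87% and 1.18% of the loci read were (LacZ, HDAC4 wt and HDAC4 3SA). With 0.01 added, 2, 2 and 6 members were, against 3.52%, 4.21% and 5.55% of the loci.

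**Figure D2:**
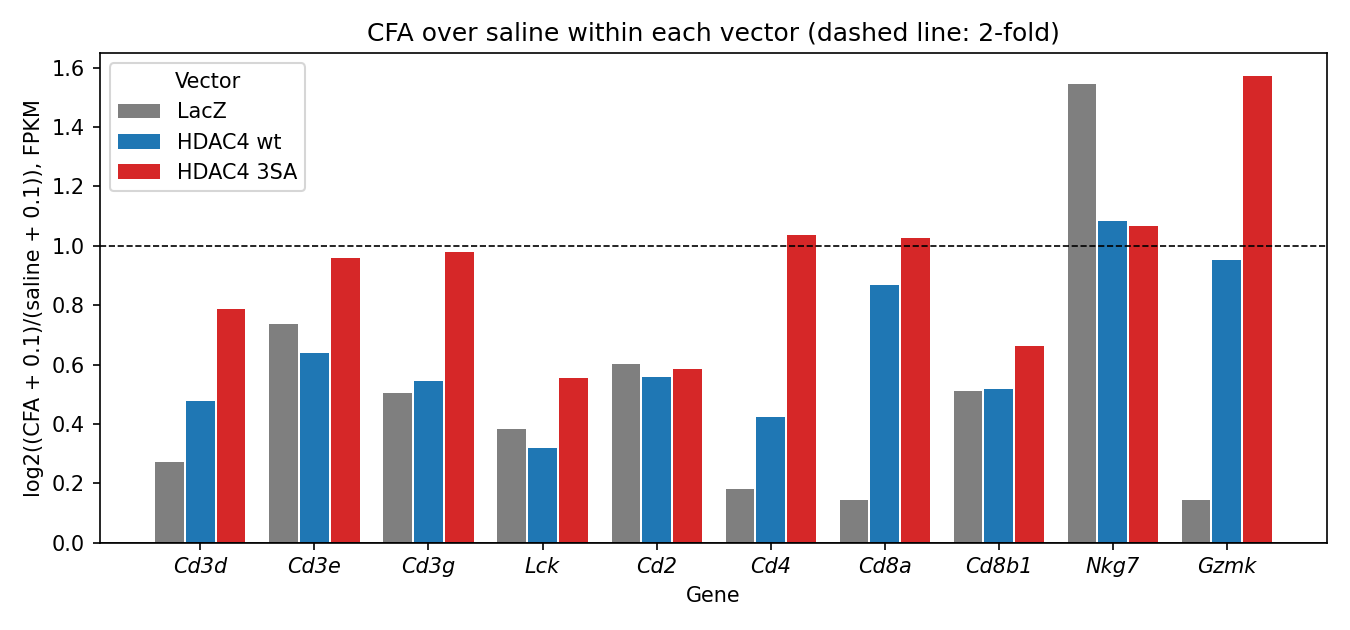
CFA over saline for each member on the log2((CFA + 0.1)/(saline + 0.1)) scale of FPKM, 1 bar per vector and no error bars since there is 1 value per group; the dashed line is 2-fold. All 30 bars are above 0, Nkg7 passes the line with each vector, and Cd4, Cd8a and Gzmk pass it with HDAC4 3SA.

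Set side by side, the CFA difference of HDAC4 3SA was above that of HDAC4 wt for 9 of the 10 members, with a median gap of 0.27 on the log2 scale, while 51.1% of all loci read were above, with a median of 0.00583. The exception was Nkg7, at -0.02, and the widest gap was that of Gzmk, at 0.62. Against LacZ, HDAC4 3SA was above for 8 members (52.1% of all loci), with a median gap of 0.35 and a range from -0.48 for Nkg7 to 1.43 for Gzmk. HDAC4 wt was above LacZ for 6 members, a share near the 50.6% of all loci, with a median gap of 0.02. On plain ratios the count was again 9 for HDAC4 3SA against HDAC4 wt, but 6 for HDAC4 3SA against LacZ and 4 for HDAC4 wt against LacZ, with Cd3e, Cd8b1, Cd2 and Nkg7 below LacZ in both. With 1 FPKM added, both HDAC4 vectors were above LacZ for 10 of 10 members. As CFA minus saline in FPKM, both were again above LacZ for 10 of 10, but HDAC4 3SA was above HDAC4 wt for only 5, with Cd3e, Cd3g, Cd8a, Cd2 and Nkg7 larger with HDAC4 wt. Which vector had the larger CFA difference thus depended on the scale. None of these gaps could be tested, and the vectors differed in the saline level from which each ratio starts.

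The comparison of the HDAC4 vectors with LacZ gave larger median differences than CFA did. After saline, all 10 members were at least 2-fold higher with HDAC4 wt than with LacZ, against 8.71% of the loci read, with a median log2 ratio of 2.48 against 0.0481 over all loci. Cd3g was 32.5 times, Cd3e 29.8 times and Cd4 26.3 times its LacZ level, whereas Cd8b1 and Lck were 4.86 and 4.84 times higher. After CFA, all 10 members were again past 2-fold (background 8.8%), with a median of 2.50. Cd4 was then at 27.0 times, Cd3g at 25.9 times and Cd8b1 at 3.65 times the LacZ level.

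HDAC4 3SA was also above LacZ for each member. After saline, 9 members were at least 2-fold higher (background 7.07%), with a median log2 ratio of 1.94. Gzmk was the exception on the scale with 0.1 FPKM added, though its plain ratio was 9.47 from a LacZ value of 0.0107 FPKM. Cd3e was 15.0 times, Cd3g 13.8 times and Cd4 13.4 times its LacZ level. After CFA, all 10 members were past 2-fold (background 9.81%), with a median of 2.25. Gzmk was at 22.3 times, Cd4 at 21.9 times and Lck at 3.09 times the LacZ level.

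**Figure D3:**
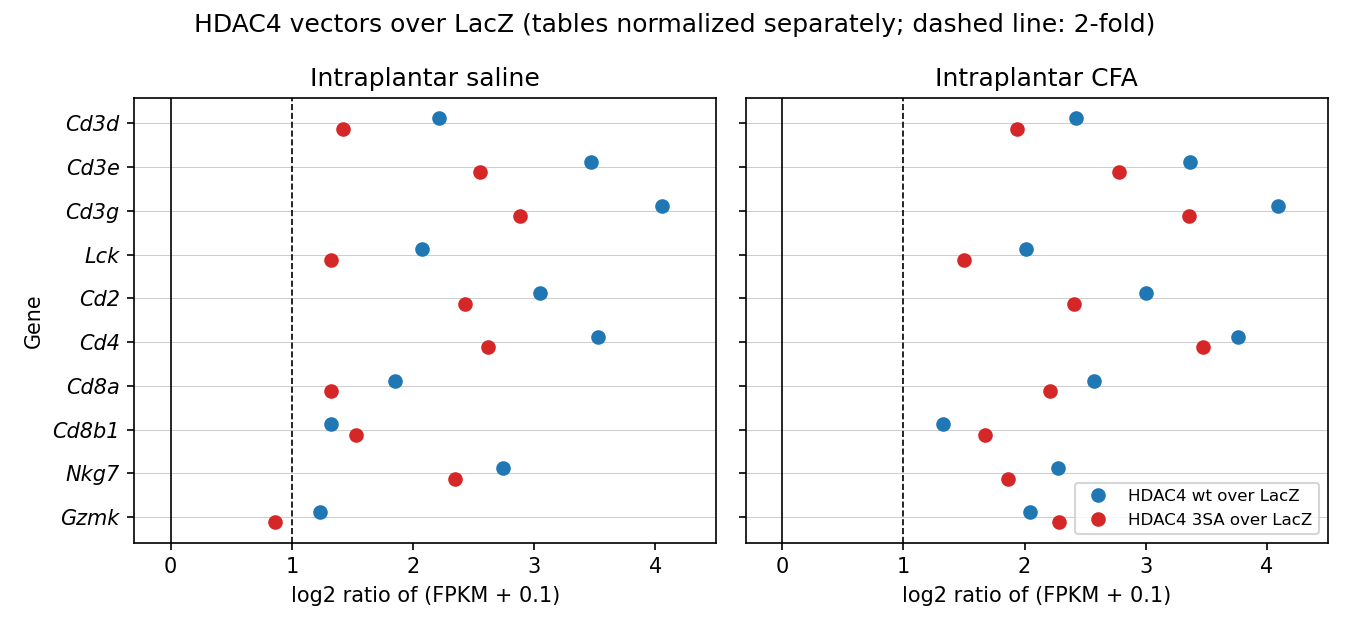
Level with HDAC4 wt (blue) and HDAC4 3SA (red) over LacZ as the log2 ratio of (FPKM + 0.1), after saline (left) and after CFA (right), 1 point per member from group values of 3 mice without error; the solid line is no difference and the dashed line 2-fold. All points but that of Gzmk with HDAC4 3SA after saline lie past the dashed line, and Cd3g, Cd4 and Cd3e lie farthest to the right with HDAC4 wt.

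Between the HDAC4 vectors the members were closer. After saline, 9 of 10 were lower with HDAC4 3SA than with HDAC4 wt, with a median log2 ratio of -0.68, while over all loci 46.7% were higher with HDAC4 3SA and the median was -0.0137. Cd3g alone was at least 2-fold lower, at -1.17 (background 2.27%), and 0 members were at least 2-fold higher (background 1.8%). After CFA, 8 of 10 were lower, with a median of -0.45, while 49.9% of all loci were higher, and 0 were past 2-fold in either direction (background 2.6% higher and 2.52% lower). The members that were higher with HDAC4 3SA were Cd8b1, 1.20 times after saline and 1.33 times after CFA, and Gzmk, 1.23 times after CFA. Cd4 was 0.509 times its HDAC4 wt level after saline and 0.809 times after CFA.

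Helper and cytotoxic genes were set against each other within a group, where the scale of a table drops out. Cd8a was 1.28 and 1.18 times Cd4 with LacZ (saline and CFA), but 0.315 and 0.456 times with HDAC4 wt and 0.398 and 0.425 times with HDAC4 3SA. Cd4 was thus above Cd8a in all 4 HDAC4 groups and below it in both LacZ groups, where both genes were below 0.12 FPKM. Cd8b1 was 0.901 and 1.43 times Cd4 with LacZ, 0.167 and 0.193 times with HDAC4 wt and 0.392 and 0.315 times with HDAC4 3SA. Nkg7 was 2.24 and 7.0 times Cd4 with LacZ, 0.874 and 1.41 times with HDAC4 wt, and 1.28 and 1.30 times with HDAC4 3SA. Gzmk did not divide the groups in this way, with 0.151 and 0.238 times Cd4 with LacZ, 0.0862 and 0.160 times with HDAC4 wt and 0.107 and 0.243 times with HDAC4 3SA.

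Against the CD3 chains, Cd4 was at 19.3% and 15.2% of their summed level with LacZ, at 30.3% and 27.6% with HDAC4 wt and at 32.6% and 35.4% with HDAC4 3SA. Cd8a went the other way, with 24.7% and 17.9% for LacZ, 9.54% and 12.6% for HDAC4 wt and 13.0% and 15.0% for HDAC4 3SA. Nkg7 was 0.434 and 1.06 times the CD3 sum with LacZ, 0.265 and 0.388 times with HDAC4 wt and 0.419 and 0.459 times with HDAC4 3SA. The LacZ CFA group stood apart here, with more Nkg7 RNA per CD3 RNA than the other 5 groups.

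The CD3 chains were also read against Ptprc, which encodes CD45, the surface phosphatase of all leukocytes and of microglia. The CD3 sum was 15.0% and 13.9% of Ptprc with LacZ, 33.6% and 31.9% with HDAC4 wt and 19.7% and 23.0% with HDAC4 3SA. Ptprc itself was at 2.44 and 4.43 FPKM with LacZ, at 18.3 and 28.8 with HDAC4 wt and at 14.8 and 25.1 with HDAC4 3SA. The CD3 share was thus higher in the HDAC4 groups than in the LacZ groups, most so with HDAC4 wt.

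**Figure D4:**
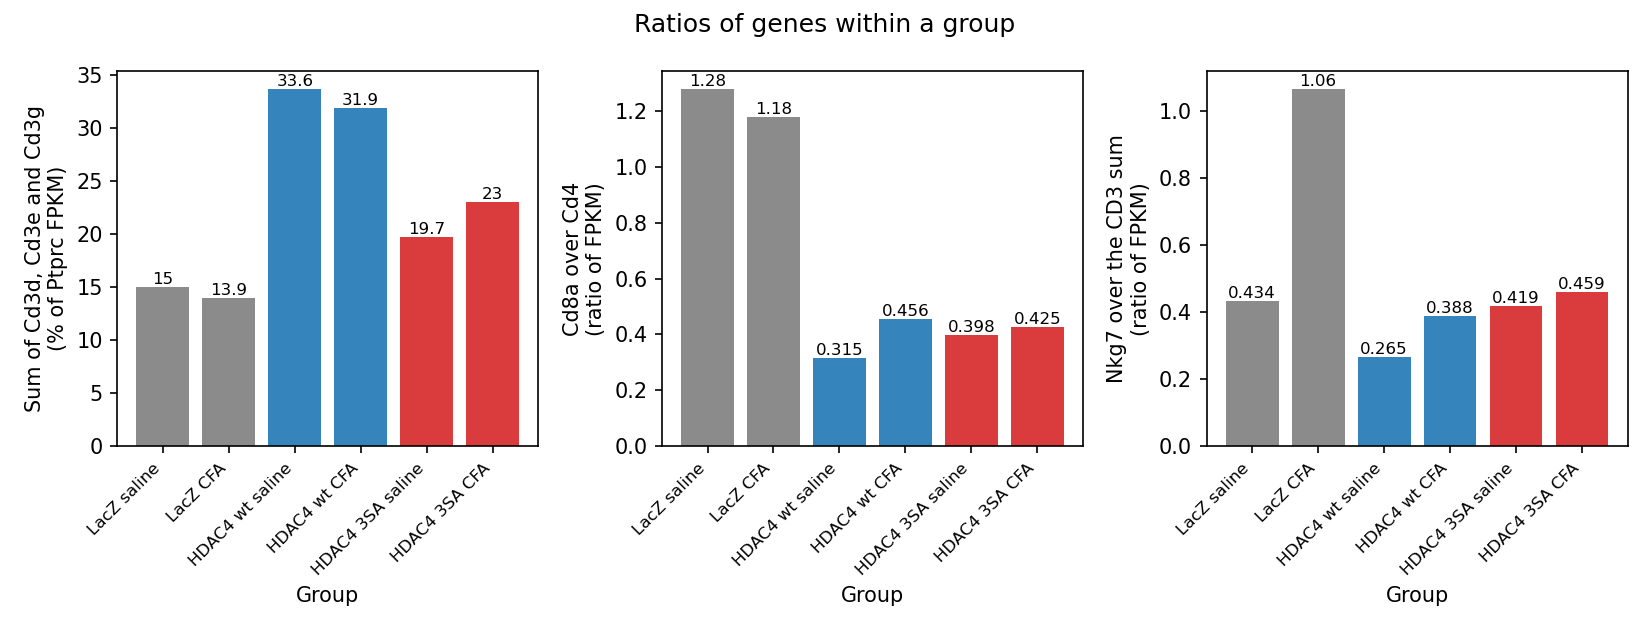
Ratios of FPKM values within each of the 6 groups (1 value per group, no error): the summed CD3 chains in percent of Ptprc (left), Cd8a over Cd4 (middle) and Nkg7 over the CD3 sum (right). Bars start at 0; Cd8a over Cd4 is above 1 in both LacZ groups and at most 0.456 in the HDAC4 groups.

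As log2 ratios, the difference between the classes depended on the comparison. For HDAC4 wt over LacZ, Cd4 was at 3.52 after saline and 3.76 after CFA, above all 4 cytotoxic genes (Cd8a, Cd8b1, Nkg7 and Gzmk), whose median was 1.59 and 2.16. For HDAC4 3SA over LacZ, Cd4 was at 2.62 and 3.47 and the cytotoxic median at 1.42 and 2.04, again with Cd4 above each of the 4. On the plain ratio after CFA, Gzmk was above Cd4 with HDAC4 3SA, 22.3 against 21.9, and Cd4 was above the 4 genes in the other comparisons with LacZ. The genes of both classes (CD3 chains, Lck and Cd2) had medians between them and Cd4, of 3.04 and 3.00 for HDAC4 wt and 2.43 and 2.41 for HDAC4 3SA. For CFA over saline the cytotoxic median was above Cd4 with HDAC4 wt, 0.91 against 0.42, with all 4 genes above Cd4. It was 0.33 against 0.18 with LacZ and 1.05 against 1.04 with HDAC4 3SA, with 2 of the 4 above Cd4 in each.

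Further lymphocyte genes were read from 5 lists with 61 genes, of which 54 were measured. They cover the T cell receptor and its signalling, T cell surface receptors, helper and regulatory genes, further cytotoxic and natural killer genes and gamma delta T cell genes. With LacZ, 4 of the 54 were at least 2-fold higher after CFA and 0 lower, with a median log2 difference of 0.27. The backgrounds of the comparisons are those given above for the members, 1.76%, 2.71% and 3.82% higher after CFA and 7.07% to 9.81% higher over LacZ, and hold for all the list counts that follow. With HDAC4 wt 4 were higher and 1 lower (median 0.38), and with HDAC4 3SA 12 were higher and 0 lower (median 0.75). Over LacZ, HDAC4 wt had 44 of the 54 at least 2-fold higher after saline and 41 after CFA, and HDAC4 3SA had 32 and 38, with none lower. HDAC4 3SA against HDAC4 wt had 0 higher and 7 lower after saline, and 2 higher and 1 lower after CFA.

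By list, the counts of genes at least 2-fold higher after CFA with LacZ, HDAC4 wt and HDAC4 3SA were 1, 0 and 3 of 17 for receptor signalling and 1, 1 and 3 of 12 for surface receptors. They were 0, 0 and 0 of 7 for helper and regulatory genes, 2, 2 and 5 of 15 for cytotoxic and natural killer genes, and 0, 1 and 1 of 3 for gamma delta T cells. The helper list thus had no gene past the line, with medians of 0.11, 0.29 and 0.37, and the cytotoxic list had medians of 0.37, 0.49 and 0.72. Zbtb7b in the helper list was at 8.37 and 9.06 FPKM with LacZ, above every member, with log2 differences of 0.11, 0.21 and 0.28. The helper medians need therefore not be those of T cells alone. Il4 in the helper list and Ctsw, Gzmm and Xcl1 in the cytotoxic list share their locus with exons of another coding gene. Without them the helper medians were 0.20, 0.26 and 0.49, with 0 genes past the line, and the cytotoxic medians were 0.40, 0.48 and 0.77, with 2, 1 and 4 of 12 past the line. The 1 gene lower past the line was Txk, a kinase of T cells, with HDAC4 wt, at 0.736 FPKM after saline and 0.163 after CFA. With HDAC4 3SA the same locus went from 0.0619 to 0.998 FPKM, and it covers only a short stretch of the gene. Over LacZ, these 2 lists did not repeat the position of Cd4 above the cytotoxic members. The helper medians were 1.52 and 1.27 for HDAC4 wt (saline and CFA) and 0.90 and 1.26 for HDAC4 3SA. The cytotoxic medians were 1.46 and 1.98, and 1.13 and 1.45. The helper median was the higher one only for HDAC4 wt after saline.

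The constant chain gene of the T cell receptor beta, Trbc1, was at 0.0552 and 0.121 FPKM with LacZ, at 1.16 and 1.31 with HDAC4 wt and at 0.443 and 1.05 with HDAC4 3SA. That of the alpha chain, Trac, started from a higher level with LacZ, 1.83 and 1.93 FPKM, and was at 5.02 and 7.10 with HDAC4 wt and at 3.17 and 5.30 with HDAC4 3SA. Cd247, the zeta chain that signals beside the CD3 chains, was at 0.0557 and 0.152 FPKM, at 0.792 and 1.07, and at 0.345 and 0.754. All 3 genes, like 9 of the 10 members, were lowest in LacZ saline, next in LacZ CFA and then in HDAC4 3SA saline.
Pdcd1, the inhibitory receptor PD-1, was at 0.175 and 0.159 FPKM with LacZ, at 1.76 and 2.79 with HDAC4 wt and at 1.68 and 3.14 with HDAC4 3SA. Icos, a co-stimulator of helper T cells, was at 0.0112 and 0.0143 FPKM with LacZ, at 0.466 and 0.747 with HDAC4 wt and at 0.247 and 0.432 with HDAC4 3SA.

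In the cytotoxic list, the most abundant genes were Ccl5, a chemokine of activated lymphocytes that myeloid cells make too, and Cst7, a protease inhibitor that activated microglia also express. Ccl5 was at 0.503 and 1.49 FPKM with LacZ, at 28.2 and 50.7 with HDAC4 wt and at 15.3 and 32.8 with HDAC4 3SA. Cst7 was at 0.348 and 0.464 FPKM, at 35.7 and 45.2, and at 23.4 and 65.0. Both were above every member in all 4 HDAC4 groups.
The granule proteases and perforin stayed below 1 FPKM, as Gzmk did. Gzmb was at 0.0815 and 0.0494 FPKM with LacZ, at 0.616 and 0.886 with HDAC4 wt and at 0.354 and 0.577 with HDAC4 3SA. Gzma was at 0.131 and 0.433 FPKM with LacZ, at 0.489 and 0.629 with HDAC4 wt and at 0.522 and 0.750 with HDAC4 3SA. Prf1, which encodes perforin, was at 0.0311 and 0.0697 FPKM, at 0.175 and 0.292, and at 0.147 and 0.192.

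Variable and joining segments of the T cell receptor gave a readout apart from the named genes. Of 23 such loci, 15 and 17 were above 0 FPKM with LacZ, 22 and 23 with HDAC4 wt and 23 and 23 with HDAC4 3SA. Their summed level was 2.57 and 3.18 FPKM with LacZ, 8.61 and 14.3 with HDAC4 wt and 5.09 and 9.0 with HDAC4 3SA. The order of groups in this sum was that of Cd3e, Cd4, Cd8a and Nkg7. The loci named Trbv6 went the other way after saline. They were at 0.208, 0.259 and 0.192 FPKM with LacZ, at 0.0789, 0.0816 and 0.0876 with HDAC4 wt and at 0.121, 0.233 and 0.185 with HDAC4 3SA. Similar segments can share reads, so single segments are uncertain, and the number of clones cannot be read from these values.

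Genes of other cell types moved in the same tissue, and their part in the results above was not tested. Of the B cell and plasma cell list, all 8 genes were measured, and their summed level was 6.81 and 8.87 FPKM with LacZ, 377 and 384 with HDAC4 wt and 229 and 364 with HDAC4 3SA. Monocyte and dendritic cell genes (6 of 7 measured) summed to 27.4 and 35.5 FPKM with LacZ, 391 and 514 with HDAC4 wt and 258 and 620 with HDAC4 3SA. Microglia genes (8 of 8) summed to 171 and 190 FPKM, 844 and 1062, and 642 and 1165. The sums of all 3 lists, like the members, were higher in each HDAC4 group than in either LacZ group, and so were 7 of 8, 5 of 6 and 8 of 8 of their genes. The exceptions were Pax5, a B cell factor, which did not separate the groups, and Flt3, a receptor of dendritic cells, which was lower in all 4 HDAC4 groups. The sum of the neuron list (7 of 7 measured) went the other way, and 5 of its genes were below LacZ in all HDAC4 groups while Rbfox3 and Gad1 did not separate the groups. Most of this sum was Snap25, a synaptic gene at 1227 FPKM in LacZ saline. The sums were 1696 and 1588 FPKM for LacZ, 1175 and 1052 for HDAC4 wt and 1252 and 947 for HDAC4 3SA. The share of all loci read that separated the LacZ from the HDAC4 groups in either direction was not counted.

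Beside the CFA differences, the neutrophil list did not go with the members. Its 7 genes were all at least 2-fold higher after CFA with LacZ, where their sum went from 11.1 to 113 FPKM. With HDAC4 wt 0 were higher and 3 lower past 2-fold, where the sum went from 41.3 to 28.5 FPKM, and with HDAC4 3SA 0 and 1, where it went from 61.7 to 38.4. After saline, 6 of the 7 were at least 2-fold higher than with LacZ for each HDAC4 vector, while after CFA both HDAC4 sums were below that of LacZ. The count of genes at least 2-fold higher after CFA with LacZ, HDAC4 wt and HDAC4 3SA was 2, 0 and 1 of 8 for B and plasma cells, 1, 0 and 3 of 6 for monocytes and dendritic cells, and 0, 0 and 1 of 8 for microglia. It was 0, 0 and 0 of 2 for red blood cells, 1, 0 and 0 of 5 for meninges, and 0, 1 and 2 of 4 for Schwann cells and sensory ganglia. For spinal neurons it was 0 of 7 and for spinal glia 0 of 6 in each vector. The sum of the red blood cell genes was 141 and 260 FPKM with LacZ, 187 and 203 with HDAC4 wt and 347 and 394 with HDAC4 3SA, that of the meninges genes 93.2 and 125, 127 and 125, and 113 and 124, and that of the Schwann cell and ganglion genes 751 and 1162, 740 and 732, and 1016 and 642. Blood and tissue next to the cord were thus present in all groups, and blood genes were also higher after CFA in each vector.

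**Figure D5:**
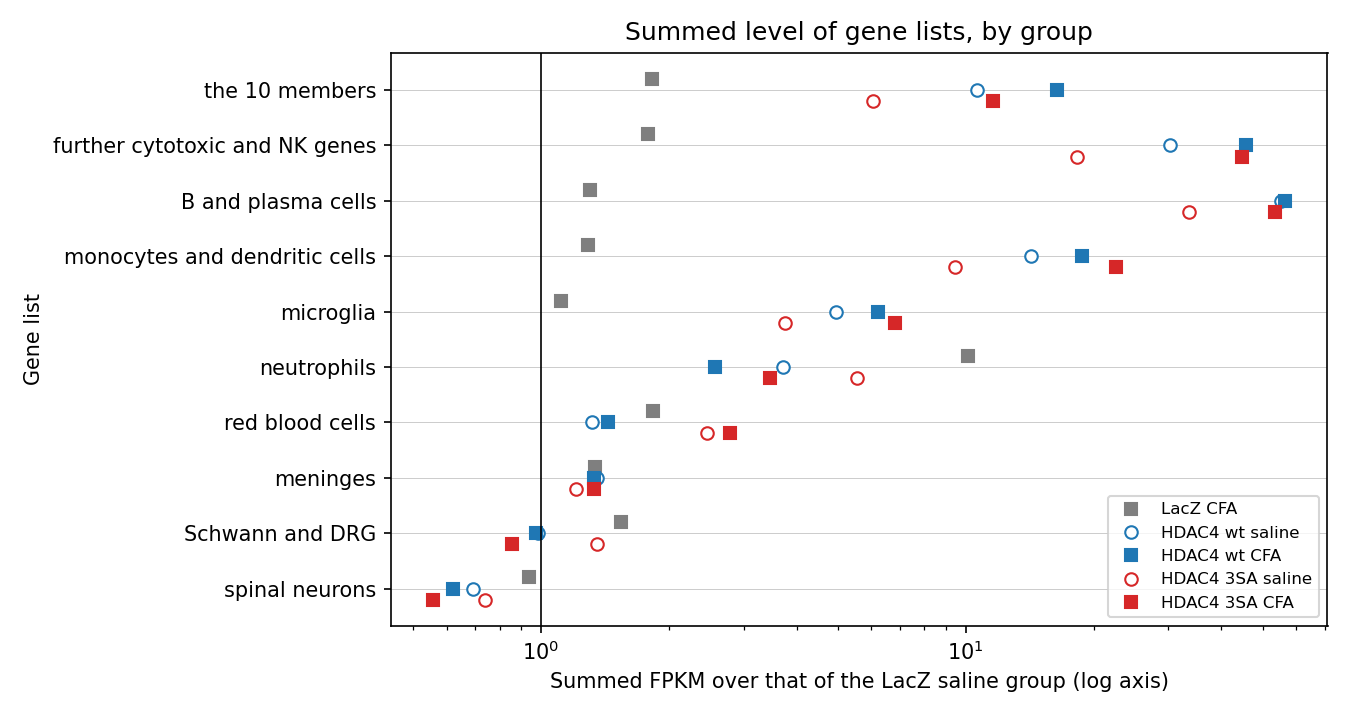
Summed FPKM of each gene list over its sum in LacZ saline (log axis; the vertical line is 1), with squares for CFA and open circles for saline, 1 value per group without error. The members, the further cytotoxic genes, B and plasma cells, monocytes and microglia lie to the right in all 4 HDAC4 groups, neutrophil genes have their highest sum in LacZ CFA, and neuron genes lie left of 1.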

How the data were processed

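Dorsal spinal cord of 18 mice in 6 groups of 3 was profiled by RNAseq of strand-specific polyA libraries, read as 50 bp single ends. Alignment to GRCm38 with the Ensembl 85 annotation was done by the authors in TopHat 2.0.14, running Bowtie 2.2.9, and Cufflinks and Cuffdiff 2.0.0 gave the levels. The deposited tables, 1 per vector, hold FPKM values as 1 estimate per group, which is why no mouse is shown and no test was made. They also hold the authors' own fold change, test statistic, p-value, q-value and call, none of which was used. Counts per library were not analysed here.

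From the FPKM values, log2 ratios were computed with 0.1 FPKM added, a difference of at least 2-fold was counted, and loci with 1 gene name, the same place in all 3 tables and a mean of at least 0.1 FPKM (25278 of 34579) served as background. For 386 loci the place differed between tables. Table starts were taken as counting from 0 and are printed counting from 1. Exons are those of GENCODE. All members are named with their 6 group values. Of the other lists, 14 with 120 genes (107 measured), counts and sums are given, with genes named from the most abundant and the ends of the range and some, such as Trbc1, Cd247, Pdcd1, Icos, Gzma and Prf1, after their values were seen. The summed level of the spinal glia list is not reported here. The members and lists were chosen with earlier results of these data known. The scripts (Python 3.11.15, pandas 2.3.3) were tested on simulated ratios. Alternatives were another added FPKM, the sum of all rows of a name, a 1.5-fold threshold, a minimum level and centring on loci of at least 5 FPKM. Leaving out list loci that hold exons of another coding gene, and reading the gaps between vectors and Cd4 against the cytotoxic genes at other constants, on plain ratios and (gaps) as FPKM differences, were chosen after seeing the data.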

Additional observations from a re-analysis of the deposited data

Results flagged for a closer look

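A second locus that carries the name Gzmk (chr13:113189912-113190324, minus strand) was not used in the comparisons. It lies in an intron of the longest annotated transcript and holds no Gzmk exon. It is singled out because its value in HDAC4 3SA CFA, 0.365 FPKM, was above that in LacZ saline. It was at 0.116 and 0.0246 FPKM with LacZ (saline and CFA), at 0.0656 and 0.108 with HDAC4 wt, and at 0.144 and 0.365 with HDAC4 3SA, so that only the HDAC4 3SA groups were above LacZ saline. With LacZ it was thus higher than the used Gzmk locus in both groups, and it was lower after CFA than after saline.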

How the results depend on the processing

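Of 108 alternative values of the 24 main values, 91 stayed within 1.5-fold (0.585 on the log2 scale). Part of the 91 could hardly move. All members have a mean of at least 0.1 FPKM, so the 15 values with a minimum level repeat the main ones. Summing rows changes only Gzmk, and all 15 centred values stayed. With 0.01 FPKM added, 5 values moved and 19 stayed. With 1 added, 9 moved and 15 stayed, and at 1.5-fold 3 moved and 3 stayed. In 1 of the 108 values the sign changed: the cytotoxic median minus Cd4 after CFA with HDAC4 3SA went from 0.01 to -0.20 with 1 FPKM added. Counts of members at least 2-fold higher after CFA moved with the FPKM added and the threshold. With LacZ they were 2 (0.01 FPKM added), 0 (1 added) and 3 (1.5-fold), with HDAC4 wt 2, 0 and 4, and with HDAC4 3SA 6, 0 and 9. Of the loci read, 3.52%, 4.21% and 5.55% (0.01 added), 0.316%, 0.87% and 1.18% (1 added) and 5.15%, 8.2% and 10% (1.5-fold) were higher in the same order of vectors. The member median was 0.73 with LacZ and 0.61 with HDAC4 wt with 0.01 added, against 0.44 and 0.55. With 1 added, Nkg7 was above Cd4 for HDAC4 3SA over LacZ after saline. The median log2 ratio of HDAC4 wt over LacZ was 3.16 (0.01 added) and 1.19 (1 added) after saline, and 3.29 and 1.37 after CFA. That of HDAC4 3SA over LacZ was 2.64 (0.01 added) and 0.73 (1 added) after saline, and 1.02 (1 added) after CFA. The log2 ratio of Cd8a over Cd4 was -0.85 in HDAC4 wt saline and -0.50 in HDAC4 3SA saline with 1 FPKM added. The cause of these shifts was not tested beyond the constant and threshold that define them. Among 90 alternative values of single genes, 1 changed sign: Gzmk after CFA with LacZ was at -0.63 when its loci were summed. No paired analysis was possible because the files hold 1 value per group and none per mouse, and for the same reason no mouse could be left out. The reads behind a value are not in the tables, so the precision of the low LacZ values is unknown.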
